A study of Mus musculus with 8 samples.

Results

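The 6 genes described here encode proteins that take up and carry fatty acids in endothelial cells: Cd36, Fabp4, Fabp5, Slc27a1, Slc27a3 and Slc27a4. They were chosen by symbol in the gene list of the second sequencing run and matched to the first run by Ensembl identifier, and all 6 were found among the 30406 identifiers that both lists hold. Fatty acids released from lipoproteins at the capillary wall must cross the endothelium before muscle or fat cells can use them. CD36 is a membrane receptor for long-chain fatty acids, FABP4 and FABP5 are small cytosolic proteins that bind them, and SLC27A1, SLC27A3 and SLC27A4 belong to the fatty acid transport protein family, whose members join fatty acids to coenzyme A. FABP4 and CD36 are also abundant proteins of adipocytes and, with FABP5, of lipid-handling macrophages.

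The data are single-cell RNA sequencing counts of YFP-sorted cells of mesentery or epididymal fat. They come from male mice of the genotype ROSA26-eYFP+/+ Cdh5-CreERT2+, in which a Cre driven by the endothelial Cdh5 promoter switches on YFP. Tamoxifen was fed to every mouse, controls included, for 2 weeks starting at an age of 6 weeks. The diets began at 8 weeks and lasted 12 to 13 weeks, with either chow holding 5.8% fat or feed holding 60% fat, called high fat diet. Tissue of 6 mice was combined into each pool, and each of the 4 groups (chow or high fat diet, mesentery or adipose) had 1 pool in run A and 1 in run B, so n = 2 pools per group.

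The 8 libraries held 3461360 to 6714473 unique molecular identifiers (UMIs, 1 per captured RNA molecule) in run A and 18829960 to 36779289 in run B. After filters on UMIs, genes, mitochondrial share and doublets, 23207 of 27944 cell barcodes were used. Clusters were named from marker genes that did not include the 6 members, and the members were also left out of the genes used for clustering. Capillary-like cells numbered 28 to 138 per library in run A and 885 to 2129 in run B. Each pool enters the tests as 1 sum, so the small run A sums bear on results of that class as the larger ones do. Although cells were sorted for the reporter, adipocyte-like, macrophage-like, fibroblast-like, T cell-like and B cell-like clusters were present. The 12 endothelial markers used to check the label, such as Pecam1 and Cdh5, were all detected in the endothelial cells of every library, at a summed level of 7810 to 11000 CPM. CPM stands for counts per 1000000 UMIs of the summed cells. The sums called all endothelial cells also hold clusters that got no class name. Clusters 10 and 14, with Adipoq and Cfd among their leading genes, had 505 and 332 cells in chow adipose of run B against 4 and 3 on high fat diet, and 229 and 195 against 3 and 12 in mesentery, at 51300 and 63700 CPM of Fabp4. Cluster 9, led by genes that include Acta2 and Myh11, which are mural, had 0 to 203 cells per library. Cluster 3, led by haemoglobin genes, was at 68800 CPM of Fabp4 in run B. It had 399 cells in chow and 742 in high fat diet adipose of that run, and 247 and 310 in mesentery. Cluster 16, at 674 CPM of Fabp4 in run B, had 402 cells in chow mesentery of that run against 2 on high fat diet. Library pairs shared at most 10 barcodes. Where nothing else is said, p-values measure the spread between these pools. Fewer cells of a type in a mixed sum and less RNA per cell cannot be told apart in the values given for all endothelial cells.

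On GRCm38 (mm10) with GENCODE vM21, Fabp4 (ENSMUSG00000062515) lies at chr3:10204088-10208576 on the minus strand and Fabp5 (ENSMUSG00000027533) at chr3:10012548-10016607 on the plus strand, 187 kb apart. Cd36 (ENSMUSG00000002944) spans 107 kb at chr5:17781690-17888801 on the minus strand. Slc27a3 (ENSMUSG00000027932) lies at chr3:90385239-90389938 on the minus strand, Slc27a1 (ENSMUSG00000031808) at chr8:71568882-71587302 and Slc27a4 (ENSMUSG00000059316) at chr2:29802634-29817522, both on the plus strand. Transcripts of Cd36, Slc27a3 and Slc27a4 shared no run of 31 bases with a transcript of another gene. For Fabp4 the largest share of such runs held by another gene was 0.111%, for Slc27a1 it was 0.911% and for Fabp5 it was 7.24%, so a small part of Fabp5 reads may be lost to or gained from near copies.

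RefSeq promoter sequence (GRCm38.p6) was at hand for 4 of the 6 members. The 250 bases before 1 annotated start of Cd36 and before the start of Slc27a3 are shown because Cd36 was higher and Slc27a3 lower in capillary-like than in arterial-like cells in 8 of 8 libraries. Both are written 5′ to 3′ on the gene's strand (minus), with each GC box (GGGCGG or CCGCCC on either strand) in capitals.
Cd36, chr5:17835897-17836146: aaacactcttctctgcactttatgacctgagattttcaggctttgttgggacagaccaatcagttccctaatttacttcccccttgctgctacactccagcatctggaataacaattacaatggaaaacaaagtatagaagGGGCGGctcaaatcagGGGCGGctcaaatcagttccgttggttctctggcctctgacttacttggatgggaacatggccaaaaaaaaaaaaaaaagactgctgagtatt
Slc27a3, chr3:90389939-90390188: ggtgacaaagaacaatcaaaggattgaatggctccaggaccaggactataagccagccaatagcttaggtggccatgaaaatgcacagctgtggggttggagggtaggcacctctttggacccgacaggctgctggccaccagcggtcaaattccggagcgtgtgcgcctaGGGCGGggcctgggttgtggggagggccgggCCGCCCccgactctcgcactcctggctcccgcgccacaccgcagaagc
The Cd36 window was 43.2% G or C with 3 CpG pairs, below the median of 52.4% and 6 CpG pairs over 32851 windows of the same length. The Slc27a3 window was 62.4% G or C with 13 CpG pairs. A GC box was present in 32.7% of all windows, and each of the printed windows held 2. The nuclear receptor motif AGGTCA or its reverse TGACCT occurred once in the Cd36 window, not in the Slc27a3 window, and in 14.0% of all windows. The full PPAR element, a direct repeat of AGGTCA with 1 base between the copies, was in neither window and in 0.0335% of all windows.

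Cd36, Fabp4 and Fabp5 were highest in capillary-like and lowest in lymphatic-like cells in each of the 8 libraries, except that Fabp5 was higher in venous-like than in capillary-like cells in chow adipose of run A. Levels are CPM of the summed cells of a class in 1 library. Cd36 in capillary-like cells was 789 and 6388 CPM in chow mesentery (runs A and B), 1488 and 6656 in high fat diet mesentery, 490 and 6709 in chow adipose, and 2474 and 7566 in high fat diet adipose. In lymphatic-like cells it was 56.9 and 565, 85.3 and 351, 22.1 and 130, and 69.4 and 136 CPM in the same order. Within every library the capillary-like value was the higher one, by 11.3 to 55.6 times. Arterial-like and venous-like cells lay between, at 247 to 5086 and 52.0 to 3749 CPM, and the capillary-like level was above both in 8 of 8 libraries.

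**Figure D1:**
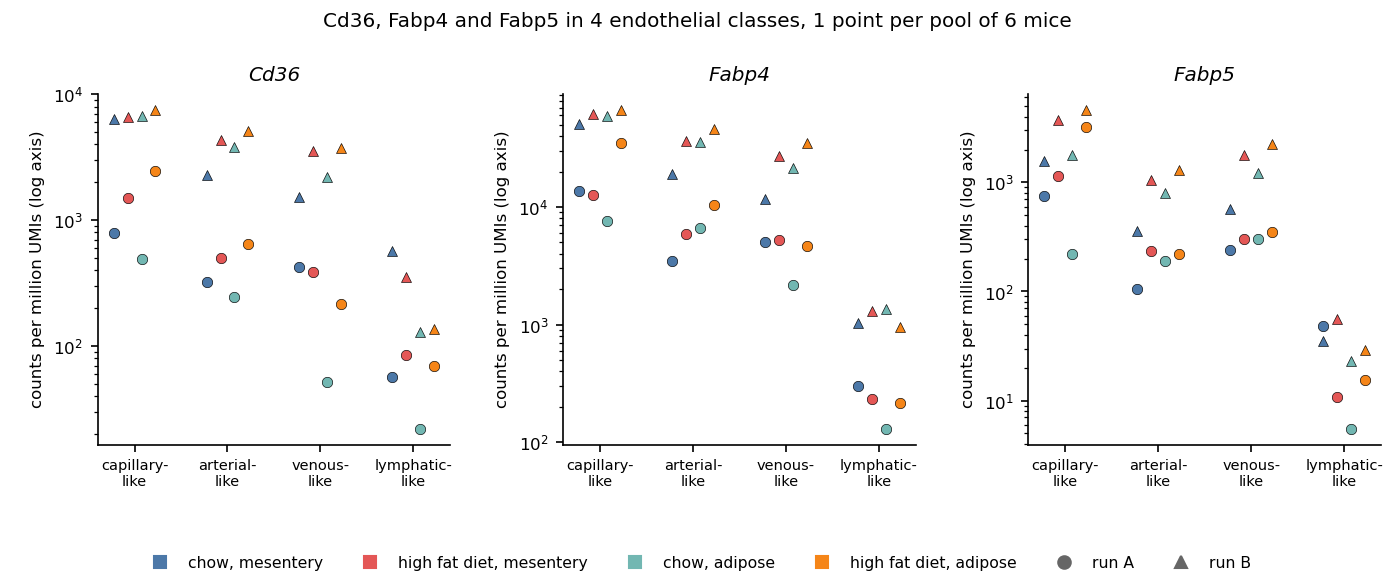
Cd36, Fabp4 and Fabp5 levels (y axis, CPM, log axis) in the summed cells of 4 endothelial classes (x axis), 1 point per pool, coloured by group and shaped by run. Capillary-like points lie above lymphatic-like points of the same pool for all 3 genes, and run B points (triangles) lie above run A points (circles) of the same group and class in all but 1 of the pairs, Fabp5 in lymphatic-like cells of chow mesentery.

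Fabp4 followed the same order at a much larger share of the RNA. In capillary-like cells of run B it took 5.04% of all UMIs in chow mesentery, 6.2% in high fat diet mesentery, 5.94% in chow adipose and 6.74% in high fat diet adipose. In run A the shares were 1.36%, 1.26%, 0.753% and 3.49%. Lymphatic-like cells had 130 to 300 CPM in run A and 949 to 1352 CPM in run B, which is 43.9 to 161 times below the capillary-like cells of the same library.

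Fabp5 differed from Cd36 and Fabp4 in 1 respect: venous-like cells were above arterial-like cells in 8 of 8 libraries, whereas for Cd36 and Fabp4 arterial-like cells were above venous-like cells in 7 of 8. Capillary-like Fabp5 was 750 and 1562 CPM in chow mesentery, 1141 and 3738 in high fat diet mesentery, 221 and 1777 in chow adipose, and 3205 and 4652 in high fat diet adipose. The capillary-like value exceeded the arterial-like value in 8 of 8 libraries and the venous-like value in 7 of 8. Lymphatic-like cells held 5.53 to 56.0 CPM.

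A fit of edgeR's quasi-likelihood test to the 4 classes, with the library as a block, called all 3 genes higher in capillary-like cells in each contrast. Against arterial-like cells the log2 differences were 1.10 ± 0.29 (SE) for Cd36 (adjusted p = 0.00597), 0.98 ± 0.21 for Fabp4 (adjusted p = 0.000563) and 2.02 ± 0.32 for Fabp5 (adjusted p = 1.56e-05). Against venous-like cells they were 1.63 ± 0.30 (adjusted p = 6.16e-05), 1.48 ± 0.21 (adjusted p = 1.34e-06) and 1.27 ± 0.31 (adjusted p = 0.00183). Against lymphatic-like cells they were 4.49 ± 0.34 (adjusted p = 3.27e-12), 5.87 ± 0.25 (adjusted p = 2.74e-17) and 6.08 ± 0.40 (adjusted p = 1.9e-13). Of all 8983 genes tested, 9.55% were called higher in capillary-like than in arterial-like cells, 15% higher than in venous-like cells and 22% higher than in lymphatic-like cells. When capillary-like cells were restricted to cluster 1, 1 of their 2 clusters, the differences from arterial-like cells fell to 0.61 for Cd36 (adjusted p = 0.201) and 0.34 for Fabp4 (adjusted p = 0.537), and the Fabp5 difference from venous-like cells fell to 0.74 (adjusted p = 0.119). That restriction kept chow adipose of run A, at 85.1 CPM of Cd36 and 917 CPM of Fabp4 in cluster 1. In run B, cluster 1 had 49430 to 67480 CPM of Fabp4, beside 19070 to 46150 CPM in arterial-like cells. In run B alone the Cd36 difference from arterial-like cells was 0.83 (adjusted p = 0.14). Without chow adipose of run A, where 69.4% of the capillary-like cells had no UMI of these genes after thinning, the differences of Cd36, Fabp4 and Fabp5 were 1.11, 1.12 and 2.18 against arterial-like cells, 1.5, 1.46 and 1.44 against venous-like cells and 4.48, 5.87 and 6.15 against lymphatic-like cells, and each was still called.

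Slc27a3 had another order. Arterial-like cells had 50.5 and 35.2 CPM in chow mesentery, 58.3 and 37.3 in high fat diet mesentery, 44.6 and 21.3 in chow adipose, and 33.2 and 39.4 in high fat diet adipose (runs A and B). These values exceeded the capillary-like value in 8 of 8 libraries. Venous-like cells ranged from 11.9 to 71.2 CPM, capillary-like cells from 0 to 30.0 and lymphatic-like cells from 0 to 8.07. The capillary-like level was lower by a log2 difference of -1.38 ± 0.28 against arterial-like cells (adjusted p = 0.000324) and of -1.56 ± 0.26 against venous-like cells (adjusted p = 2.17e-05), beside 11.5% and 18.3% of all genes called lower. It was higher than in lymphatic-like cells by 1.5 ± 0.42 (adjusted p = 0.00433, edgeR), a contrast in which 22% of all genes were called higher and 22.5% lower. The run A sums of capillary-like cells rest on 0 to 7 Slc27a3 counts each. With run A alone the differences were -1.11 against arterial-like cells (adjusted p = 0.347) and -0.10 against venous-like cells (adjusted p = 0.961).

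Slc27a1 and Slc27a4 were near the limit of detection in every endothelial class. Over all endothelial cells Slc27a4 stayed between 5.48 and 8.40 CPM in the 8 libraries, and Slc27a1 between 1.56 and 11.03. Neither passed the count filter of the class fit, and 3 of 8 capillary-like sums and 3 of 8 arterial-like sums held no Slc27a1 count.

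**Figure D2:**
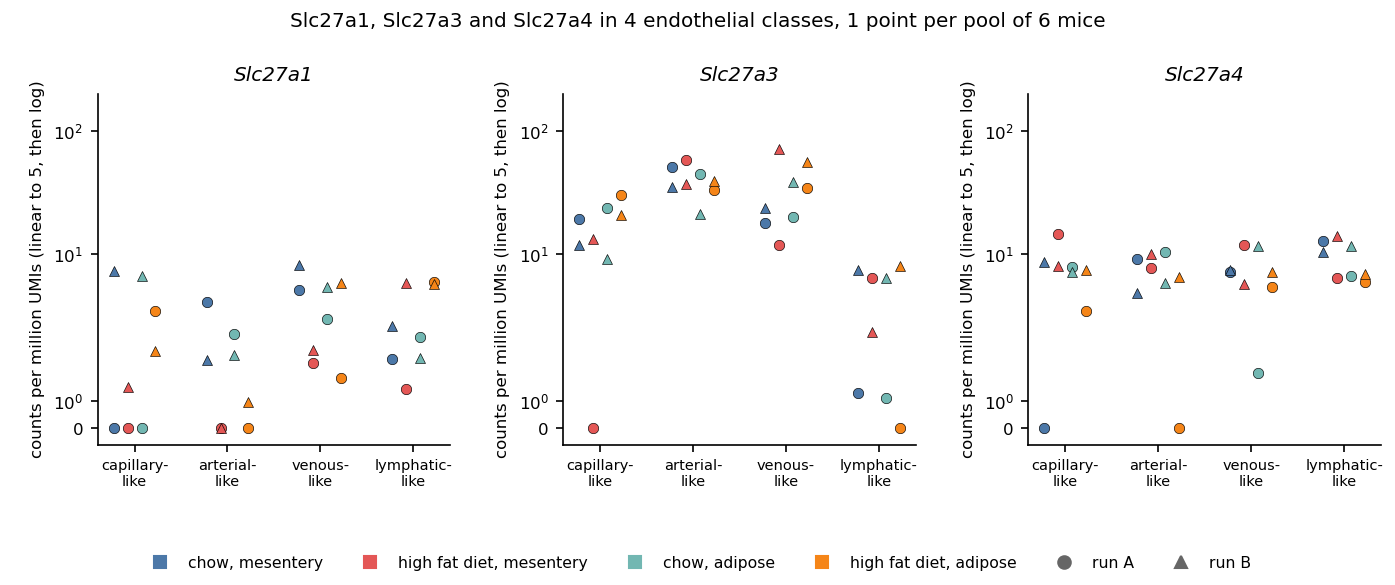
Slc27a1, Slc27a3 and Slc27a4 levels (y axis, CPM, linear to 5 and logarithmic above) in 4 endothelial classes (x axis), 1 point per pool, coloured by group and shaped by run. Slc27a3 was highest in arterial-like and venous-like cells, whereas Slc27a1 reached at most 8.09 CPM and Slc27a4 at most 14.5 CPM in a class of 1 library.

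To compare shares of cells across depths, each cell was thinned to 1000 UMIs and shallower cells were left out. In run B a Cd36 UMI was found in 98.3% to 98.8% of capillary-like cells, a Fabp4 UMI in 99.8% to 100.0% and a Fabp5 UMI in 62.2% to 85.9% (unthinned 99.4% to 99.9%, 99.9% to 100.0% and 88.0% to 96.9%). The Fabp5 share was 62.2% (exact binomial 95% interval 58.9% to 65.4%, 880 cells) in chow mesentery and 83.5% (81.0% to 85.8%, 956 cells) in high fat diet mesentery. It was 67.3% (65.3% to 69.3%, 2123 cells) in chow adipose and 85.9% (83.7% to 87.9%, 1090 cells) in high fat diet adipose. Both high fat diet shares thus lay above both chow shares in that run. Intervals cover counting error only.

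In run A the Fabp5 share was 34.8% (16.4% to 57.3%, 23 cells) in chow mesentery, 37.0% (19.4% to 57.6%, 27 cells) in high fat diet mesentery, 8.16% (2.27% to 19.6%, 49 cells) in chow adipose and 61.7% (50.3% to 72.3%, 81 cells) in high fat diet adipose. In chow adipose of run A, 69.4% of the capillary-like cells had no UMI of Cd36, Fabp4 or Fabp5 after thinning, against 0 to 9.88% in the other 7 libraries. Of its 106 capillary-like cells, 91 belonged to cluster 1 and held 97 Fabp4, 9 Cd36 and 0 Fabp5 counts in all. Their low levels of these genes set that library apart. For Cd36, Fabp4 and Fabp5 in all capillary-like cells, class differences and diet changes with the run as a block are also given without it. Alternatives such as cluster 1 alone or cells without adipocyte UMIs, and differences of Slc27a3 and of genes outside the members, are given only with it.

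Free RNA sets the level below which a share cannot be read as expression. T cell-like and B cell-like cells, taken here to lack these genes, had a Cd36 UMI in 0 to 4.88% of cells, a Fabp5 UMI in 0 to 4.76% and a Fabp4 UMI in 1.85% to 42.9% after thinning. Median depth was 1106 to 5249 UMIs in T cell-like and 1975 to 3354 in B cell-like cells. Lymphatic-like cells had Fabp4 in 6.55% to 43.1% and Fabp5 in 0 to 3.92% of cells, so over all libraries neither share stood clearly above that level. Summed Fabp4 in run B was 949 to 1352 CPM in lymphatic-like, 261 to 793 in T cell-like and 513 to 711 in B cell-like cells. In run A lymphatic-like cells had 130 to 300 CPM and T cell-like cells 44.7 to 515. The Cd36 share of lymphatic-like cells was 26.9% in chow mesentery and 26.8% in high fat diet mesentery of run B, above the highest T cell-like or B cell-like share of 4.88%. In chow and high fat diet adipose of that run it was 5.88% and 4.40%, at about that share. Summed Cd36 in run B was nevertheless 130 to 565 CPM in lymphatic-like cells, against 24.4 to 33.0 in T cell-like and 33.5 to 71.8 in B cell-like cells.

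**Figure D3:**
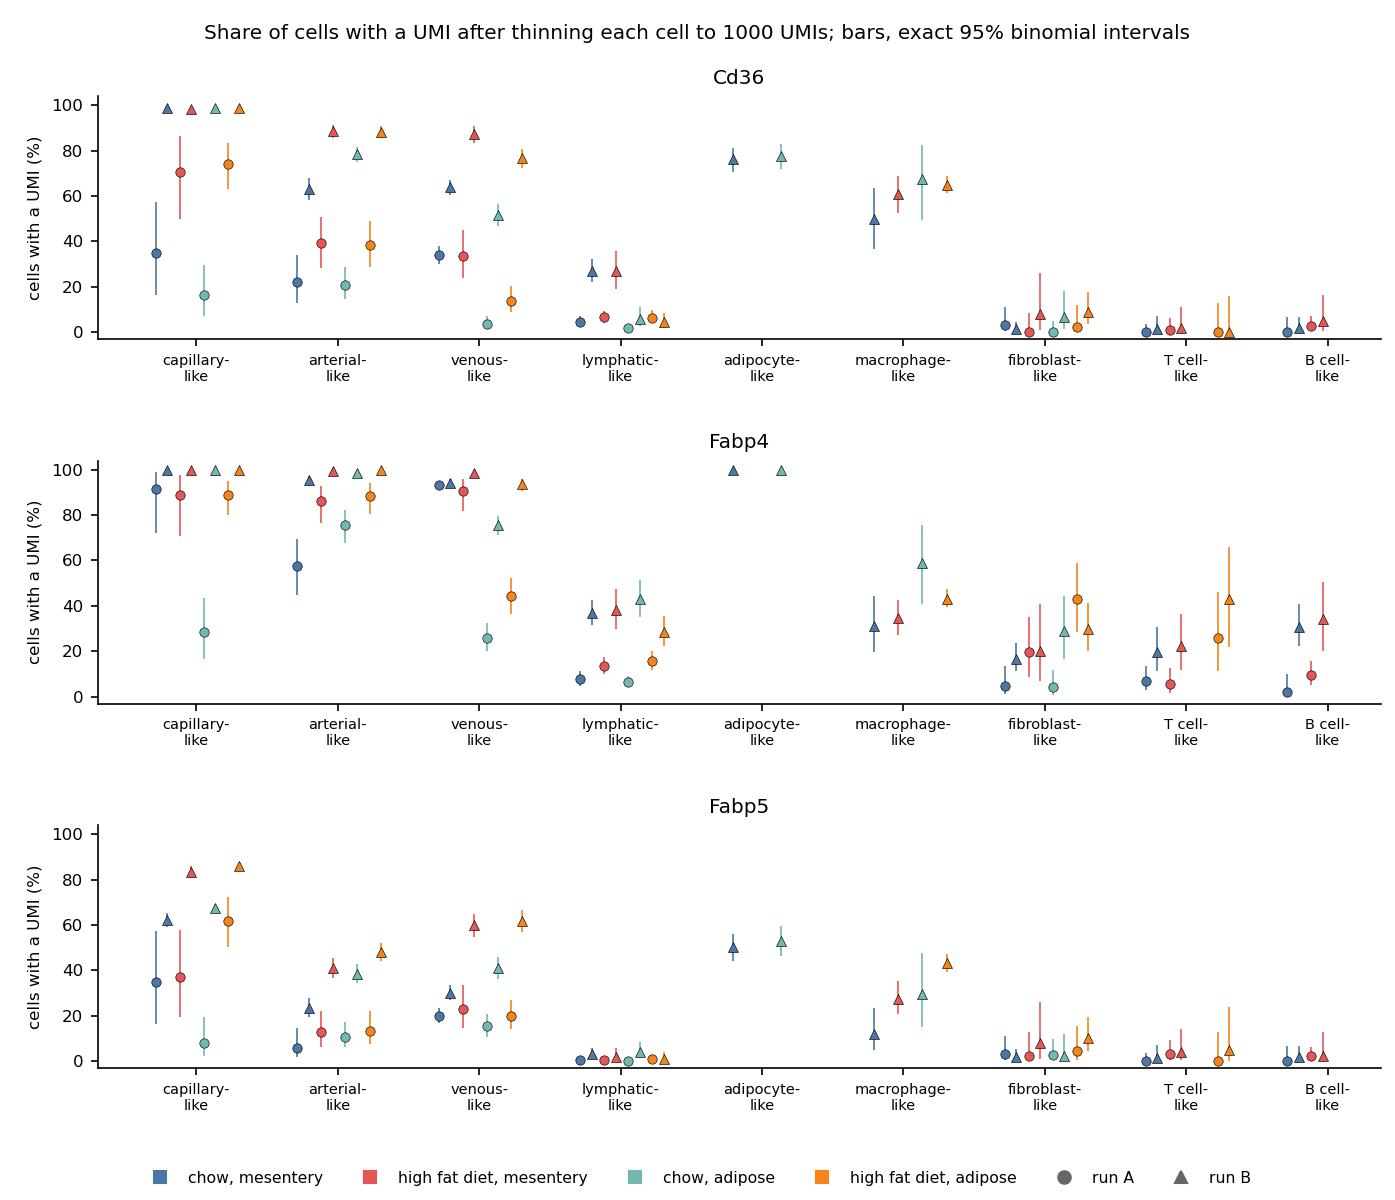
Share of cells with at least 1 UMI of Cd36, Fabp4 or Fabp5 (y axis, percent) after thinning every cell to 1000 UMIs, by cell class (x axis), with exact 95% binomial intervals, 1 point per pool, coloured by group and shaped by run. Capillary-like cells of run B reach at least 98.3% for Cd36, and the Fabp5 share of capillary-like cells in run B is 83.5% and 85.9% on high fat diet against 62.2% and 67.3% on chow.

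Outside the endothelium the 3 genes were abundant in adipocyte-like and macrophage-like cells. Adipocyte-like cells reached 20 cells only in the chow libraries of run B, with 374 cells in mesentery and 288 in adipose. There Fabp4 was 55420 and 55140 CPM, Cd36 2262 and 2555, Fabp5 936 and 1030, and Slc27a1 101 and 97.1, against at most 11.03 CPM of Slc27a1 in all endothelial cells of any library. Fibroblast-like cells held 7.60 to 168 CPM of Cd36 and 7.60 to 108 of Fabp5.

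Macrophage-like cells could be read only in run B, with 1 library per group and therefore no replicate check. Fabp5 was 206 CPM (95% Poisson interval 166 to 252, 83 cells) in chow mesentery and 1051 CPM (1010 to 1100, 166 cells) in high fat diet mesentery. In adipose it was 277 CPM (217 to 347, 36 cells) on chow and 1104 CPM (1080 to 1130, 663 cells) on high fat diet. Cd36 was 963 and 1817 CPM in chow and high fat diet mesentery, and 2217 and 2270 CPM in adipose. Fabp4 was 2266 and 2687 CPM in mesentery, and was lower on high fat diet in adipose, at 7380 and 2646 CPM. Within cluster 11 alone, led by the complement genes C1qa, C1qb and C1qc, Fabp5 was 123 and 250 CPM in the chow libraries and 1090 and 1046 CPM in the high fat diet libraries of mesentery and adipose. Fabp4 of that cluster went the other way, from 2363 and 6009 CPM on chow to 1255 and 1522 CPM on high fat diet. Cluster 24 held 59.0% of the chow mesentery macrophage-like cells and 16.7% to 22.9% in the other run B libraries.

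Levels of Cd36, Fabp4 and Fabp5 differed between the runs. In all endothelial cells Cd36 was higher in run B in 4 of 4 groups, by 9.17 to 56.4 times, Fabp4 by 6.68 to 24.3 times and Fabp5 by 3.66 to 17.1 times. The log2 differences of run B over run A were 4.12 ± 0.46 for Cd36 (adjusted p = 0.00122), 3.58 ± 0.38 for Fabp4 (adjusted p = 0.00108) and 2.97 ± 0.40 for Fabp5 (adjusted p = 0.00226), in a test (edgeR) that called 19.9% of 13742 genes higher in run B. Slc27a1 (0.87 ± 0.32, adjusted p = 0.0728), Slc27a3 (0.27 ± 0.21, adjusted p = 0.344) and Slc27a4 (0.21 ± 0.22, adjusted p = 0.507) were not called. The difference was also present inside single classes: in capillary-like cells Cd36 was 3.06 to 13.7 times, Fabp4 1.93 to 7.89 times and Fabp5 1.45 to 8.04 times higher in run B. The libraries were deposited from different software versions and differed in depth and mitochondrial share. The mix of classes in all endothelial cells differed too. The fewest lymphatic-like cells in a library were 342 in run A and 127 in run B, and the fewest capillary-like cells 28 and 885. The part of these in the difference was not tested.

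No member was called with high fat diet in the test that ignores the run. With edgeR and n = 2 pools per group, 0% of genes were called for diet in either tissue, between tissues on either diet or for the interaction of tissue and diet in all endothelial cells, and 0% for diet in each of the 4 classes. At an unadjusted p under 0.05 there were 236 genes for diet in mesentery and 126 for diet in adipose of 13742, and DESeq2 called 5 and 2 genes, with an adjusted p of 1 for Cd36, Fabp4 and Fabp5. The log2 changes with high fat diet in all endothelial cells were 0.74 ± 2.11 (SE) for Cd36, 0.86 ± 1.90 for Fabp4 and 1.49 ± 1.65 for Fabp5 in mesentery, and 0.22 ± 2.10, 0.27 ± 1.88 and 1.27 ± 1.64 in adipose, each with adjusted p = 1. With only the 4 named classes, an alternative chosen after seeing the data, they were 0.59, 0.70 and 1.32 in mesentery and 0.23, 0.26 and 1.21 in adipose, again with adjusted p = 1. The standard errors carry the difference between runs, and leaving out 1 library turned the direction of all 6 values, from as low as -2.67 to as high as 5.01. On simulated counts with the run difference, this test recovered 0 of 98 genes changed by 2 on the log2 scale for diet in mesentery, and the test with the run as a block recovered 88. The simulated run difference was the same in all groups, as the block assumes, and the spread was fixed. In the data that difference varied between groups, from 9.17 to 56.4 times for Cd36. The simulated recovery therefore does not carry over to the calls with the block below.

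With the run as a block, Fabp5 rose with high fat diet in capillary-like cells of adipose and in arterial-like cells of mesentery. In capillary-like cells of adipose it was 221 CPM on chow and 3205 on high fat diet in run A, and 1777 and 4652 in run B, or 14.5 and 2.62 times higher. The log2 change was 2.56 ± 0.35 (adjusted p = 1.5e-10), in a test that called 1.21% of 10330 genes. Without chow adipose of run A it was 1.85 (adjusted p = 0.000271), and without its high fat diet counterpart of run A 1.78 (adjusted p = 0.00125). In cluster 1 alone it was 1.88 (adjusted p = 0.000109), and in cells with no adipocyte UMI 2.59 (adjusted p = 0.0572). Cluster 2 held 81.3% of capillary-like cells in chow adipose of run B and cluster 1 held 96.7% in high fat diet adipose of run B. Fabp5 was 1873 CPM in cluster 1 and 1765 CPM in cluster 2 of the former, and 4668 and 4192 CPM in the latter, so the order by diet was the same in each cluster.

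In capillary-like cells of mesentery the Fabp5 change of 1.03 ± 0.34 did not pass (adjusted p = 0.211), although both runs were higher on high fat diet, 1.52 and 2.39 times. In cluster 1 alone it was 1.56. There chow mesentery of run A had 18 cells, under the minimum of 20, so 1 chow pool of mesentery remained. Without chow adipose of run A the change over all capillary-like cells was 1.01. The test on all libraries called 0.803% of genes. In arterial-like cells of mesentery Fabp5 was 106 and 359 CPM on chow and 233 and 1050 CPM on high fat diet, 2.21 and 2.92 times higher in runs A and B. The log2 change was 1.42 ± 0.25 (adjusted p = 0.00234), and 0.682% of 8950 genes were called. It lost the call without chow mesentery of run B (1.08, adjusted p = 0.378) and without high fat diet mesentery of run B (1.39, adjusted p = 0.133). The class joins clusters 5 and 7, and cluster 5 held 32.4% of these cells on chow and 58.4% with high fat diet in run B, against 45.7% and 40.9% in run A. Within run B, Fabp5 of cluster 5 was 511 CPM with chow against 1417 CPM with high fat diet, and that of cluster 7 was 262 against 496 CPM. In run A it was 187 and 172 CPM in cluster 5, from 13 and 14 counts, and 67.6 and 262 in cluster 7. The order by diet was thus the same in 3 of these 4 pairs. In arterial-like cells of adipose the change was 0.56 ± 0.23 (adjusted p = 1), with 0.313% of genes called. Venous-like cells had changes of 1.00 ± 0.30 in mesentery (adjusted p = 0.318) and 0.64 ± 0.30 in adipose (adjusted p = 1), with 0.225% and 0.0844% of genes called. In lymphatic-like cells, where Fabp5 was near background, the changes were -0.50 ± 0.43 and 0.68 ± 0.58 and were not called, beside 1.93% and 0.0454% of genes. Over capillary-like, arterial-like and venous-like cells, Fabp5 was higher on high fat diet in every pair of pools of the same run and tissue. In venous-like cells of mesentery the clusters differed with diet. Cluster 6 held 24.1% and cluster 8 67.4% on chow in run B, against 76.6% and 20.9% on high fat diet. Within cluster 6 Fabp5 was 412 and 1692 CPM with chow against 597 and 2340 CPM with high fat diet in runs A and B. Within cluster 8 it was 254 and 245 CPM with chow against 158 and 236 CPM with high fat diet, so the order of the venous-like sums did not hold in that cluster. In adipose of run B, cluster 6 held 52.6% of the venous-like cells on chow against 80.9% on high fat diet, and cluster 15 41.6% against 13.6%. There Fabp5 in cluster 6 was 291 and 2190 CPM on chow against 620 and 2691 on high fat diet in runs A and B. In cluster 15 it was 302 and 131 CPM on chow against 163 and 135, so it was lower on high fat diet in run A. These values within clusters were looked at after seeing the data.

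Cd36 passed the test with diet in 1 class and tissue, and Fabp4 in none. In capillary-like cells of adipose the Cd36 change with the run as a block was 1.31 ± 0.35 (adjusted p = 0.0197), but the pools of run A differed by 5.05 times and those of run B by 1.13 times. Leaving out a library took the call away for 6 of 8 libraries, with 0.67 (adjusted p = 1) without chow adipose of run A and 0.52 (adjusted p = 1) without high fat diet adipose of run A. The other 4 were both mesentery libraries of each run, without which the change was 1.19 to 1.35 and the adjusted p 0.0565 to 0.524. DESeq2 with the block gave 1.27 (adjusted p = 1). Fabp4 had a change of 1.36 ± 0.42 there (adjusted p = 0.0779), with pools 4.63 and 1.13 times apart in runs A and B. It passed without chow adipose of run B (1.91, adjusted p = 0.00473), at resolution 2.0 (1.69, adjusted p = 0.015) and with doublet calls kept (1.3, adjusted p = 0.0366). Without chow adipose of run A it was 0.80 (adjusted p = 0.886). In capillary-like cells of mesentery the changes were 0.46 ± 0.35 for Cd36 and 0.16 ± 0.40 for Fabp4, both with adjusted p = 1, and without chow adipose of run A they were 0.36 and 0.14.

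In arterial-like cells of mesentery both genes were higher on high fat diet in each run. Cd36 was 322 and 2277 CPM on chow and 501 and 4363 CPM on high fat diet, 1.56 and 1.92 times higher. Fabp4 was 3450 and 19070 CPM on chow and 5858 and 36240 CPM on high fat diet, 1.70 and 1.90 times higher. The changes of 0.81 ± 0.24 (adjusted p = 0.183) and 0.84 ± 0.22 (adjusted p = 0.0734) did not pass in the full data. Cd36 passed without chow mesentery of run A (adjusted p = 0.0124) or without either chow adipose library (adjusted p = 0.015 and 0.0326), and so did Fabp4 (adjusted p = 0.037, 0.00112 and 0.00545). Within cluster 5 of run B Cd36 was 3344 CPM with chow against 5245 CPM with high fat diet, and within cluster 7 1590 against 3029 CPM. In run A Cd36 was 732 and 750 CPM in cluster 5 and 128 and 387 in cluster 7. Fabp4 was 30790 and 44750 CPM in cluster 5 and 11530 and 23380 in cluster 7 of run B, and 6528 and 8350, and 2000 and 4706, in run A, beside the shift between these clusters given above for Fabp5. With DESeq2 and the block Fabp4 passed (0.83, adjusted p = 0.00572). In cells without adipocyte UMIs both passed, at 1.03 (adjusted p = 0.0331) and 1.09 (adjusted p = 0.00728).

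**Figure D4:**
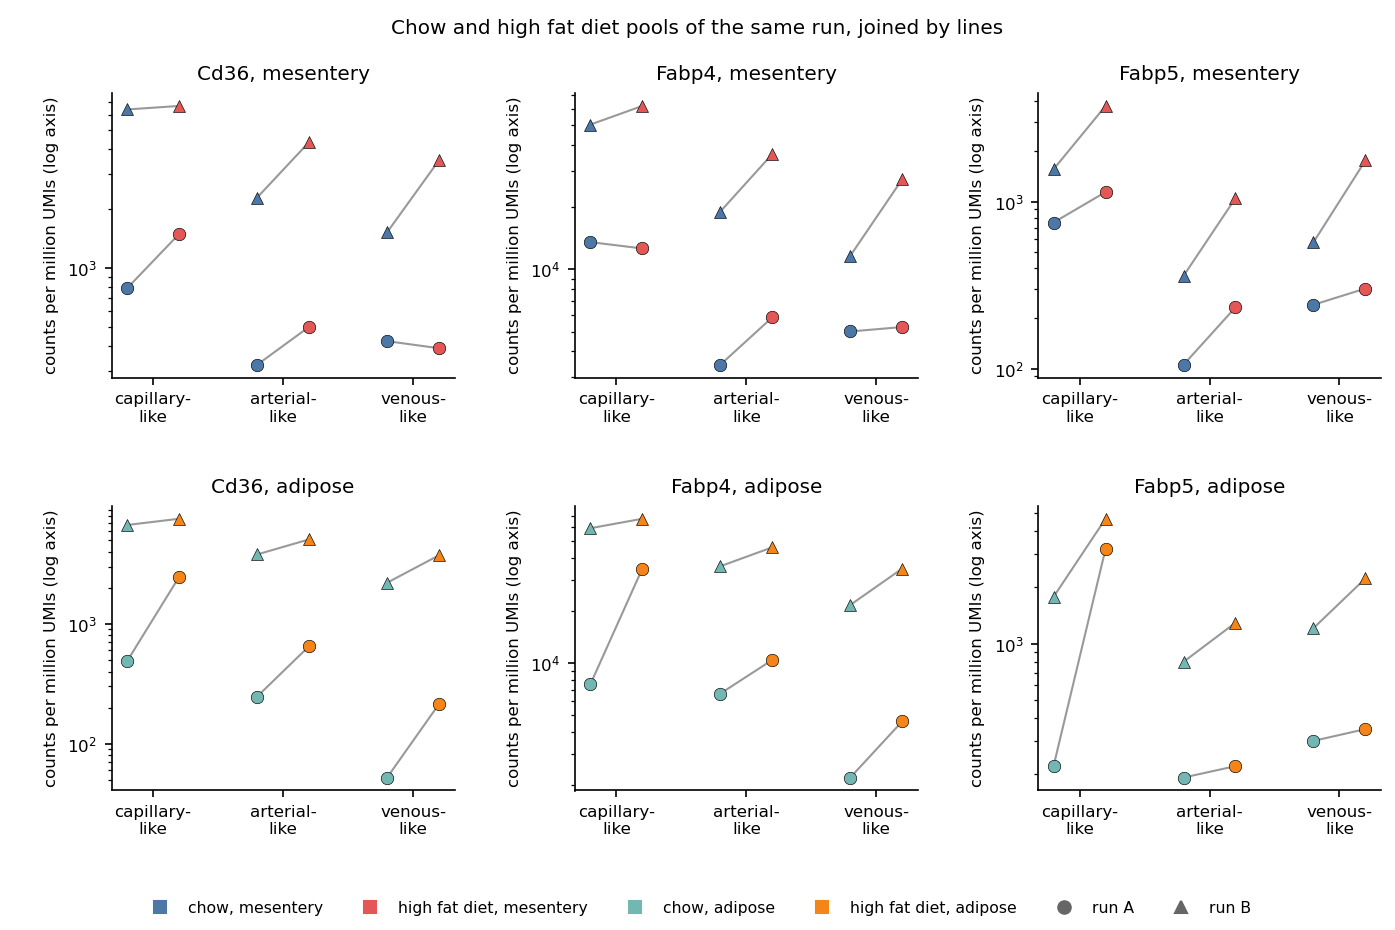
Cd36, Fabp4 and Fabp5 levels (y axes, CPM, log axes) in capillary-like, arterial-like and venous-like cells (x axes) of mesentery (top) and adipose (bottom). Each line joins the chow and the high fat diet pool of 1 run. All 12 Fabp5 lines rise, with the steepest in capillary-like cells of run A adipose (221 to 3205 CPM), and the Cd36 lines of capillary-like cells in run B are nearly flat (6388 to 6656 and 6709 to 7566 CPM).

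RNA of adipocytes moved with diet in run B. The summed level of 9 adipocyte markers (Adipoq, Plin1, Cfd, Car3, Cdo1, Retn, Adig, Cidec and Lep) in all endothelial cells was 3040 CPM in chow mesentery and 5750 CPM in chow adipose, against 174 and 74.5 CPM on high fat diet, and none of the 9 was at 0. In run A it was 14.7 and 27.8 CPM on chow and 4.28 and 19.6 CPM on high fat diet, with 0 to 5 markers at 0. In run B cells with 0 UMIs of the first 5 of these markers, Fabp4 was 5.81 times higher on high fat diet in mesentery and 3.08 times in adipose over all endothelial cells, against 1.97 and 1.06 times with all cells. For Fabp5 the ratios were 7.97 and 5.85 against 3.39 and 2.12. That selection kept 103 of 885 capillary-like cells of chow mesentery, 557 of 961 of high fat diet mesentery, 95 of 2129 of chow adipose and 879 of 1099 of high fat diet adipose, so the mix of classes differs in these sums. Within capillary-like cells of run B the ratios after the same selection were 1.24 and 1.07 for Fabp4 and 2.58 and 2.41 for Fabp5 in mesentery and adipose, against 1.23 and 1.13 and 2.39 and 2.62 with all cells.

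Slc27a1 in all endothelial cells was lower on high fat diet in both mesentery pairs, at 4.20 against 1.56 CPM in run A and 9.56 against 2.12 CPM in run B. The counts behind these are 22, 4, 182 and 31, and the change of -1.94 ± 0.46 with the run as a block was not called (adjusted p = 0.258). This gene was at 97.1 and 101 CPM in adipocyte-like cells, whose markers fell in the same pools. In cells without adipocyte UMIs, Slc27a1 on high fat diet was 0.393 (run A) and 0.562 (run B) of the chow level in mesentery. That selection also changes the mix of classes, and the part of adipocyte RNA in the difference was not tested. Slc27a3 was 23.9 and 26.5 CPM in the high fat diet libraries of run B and 14.5 and 12.8 CPM in the chow libraries, with changes of 0.35 ± 0.29 in mesentery (adjusted p = 0.831) and 0.86 ± 0.30 in adipose (adjusted p = 1). The run A libraries lay between 12.4 and 18.7 CPM. In cells without adipocyte UMIs, Slc27a3 on high fat diet was 0.911 and 2.12 times the chow level in mesentery (runs A and B). In adipose it was 1.28 and 1.54 times. With the block, 0.0218% of genes were called for diet in adipose in all endothelial cells and none for diet in mesentery, and no member was among them.

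Between tissues, arterial-like cells on chow had less Fabp4 and Fabp5 in mesentery than in adipose. Fabp4 was 3450 and 19070 CPM in mesentery and 6663 and 35930 CPM in adipose, at 0.518 and 0.531 of the adipose level in runs A and B. The log2 difference was -0.93 ± 0.22 (adjusted p = 0.0346, edgeR, run as a block), and that of Fabp5 was -1.06 ± 0.25 (adjusted p = 0.0382), beside 0.894% of genes called. Fabp5 was 106 and 359 CPM in mesentery against 192 and 799 CPM in adipose. Without the block neither passed, at -0.88 and -1.04 (adjusted p = 1 for both). Both calls were lost in cells without adipocyte UMIs, at -0.65 (adjusted p = 0.441) and -0.35 (adjusted p = 1), and that of Fabp5 with doublet calls kept (-0.99, adjusted p = 0.054). In run B cluster 5 held 32.4% of the arterial-like cells in chow mesentery and 57.3% in chow adipose. Within cluster 5 of run B Fabp4 was 30790 CPM in mesentery and 47790 in adipose, and within cluster 7 11530 and 17810. Fabp5 was 511 and 1102 CPM in cluster 5 and 262 and 336 in cluster 7. In run A, where cluster 5 held 45.7% and 39.1%, Fabp4 was 6528 and 7887 CPM in cluster 5 and 2000 and 6049 in cluster 7. Fabp5 of run A was 187 and 165 CPM in cluster 5, the opposite order, and 67.6 and 206 in cluster 7. Without chow adipose of run B the values were -0.92 (adjusted p = 0.0778) and -1.18 (adjusted p = 0.29), without high fat diet mesentery of run A Fabp4 had -0.93 (adjusted p = 0.0768), and without chow mesentery of run B Fabp5 had -0.72 (adjusted p = 0.682). The adipocyte markers in arterial-like cells were 41.3 and 621 CPM in chow mesentery and 37.7 and 1800 CPM in chow adipose.

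Cd36 in lymphatic-like cells on chow had the opposite order, with 56.9 and 565 CPM in mesentery and 22.1 and 130 CPM in adipose, 2.57 and 4.35 times higher in mesentery. The log2 difference was 1.92 ± 0.35 (adjusted p = 0.00494), beside 1.71% of genes called. It was lost without chow mesentery of run B (0.84, adjusted p = 0.479), without chow adipose of run B (2.15, adjusted p = 0.0893), with doublet calls kept (1.01, adjusted p = 0.135), with DESeq2 (1.88, adjusted p = 0.347) and without the block (2.09, adjusted p = 0.999). On high fat diet the ratios were 1.23 and 2.58 and the difference was not called (0.90 ± 0.34, adjusted p = 0.596). In all endothelial cells 0.167% of genes were called between tissues on chow with the block, and no member was.

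The genes most like a member were ranked by Pearson's r over 32 sums (4 classes in 8 libraries) after centring within each library, among 8487 genes. Cd36 and Fabp4 had r = 0.958 with each other, Fabp4 and Fabp5 0.957, and Cd36 and Fabp5 0.919, whereas Slc27a3 had 0.492 with Cd36, 0.61 with Fabp4 and 0.508 with Fabp5. The closest other genes were Prnp (0.971), Hrct1 (0.967) and Kifc3 (0.964) for Cd36, AW112010 (0.977), Apbb2 (0.974) and Esam (0.972) for Fabp4, and Slfn5 (0.955), Ablim1 (0.951) and Gda (0.943) for Fabp5. The sums share libraries, depth and cell classes, so these values are a description only.

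Of 6 tested genes that supply fatty acids from lipoproteins, 3 were called higher and 1 lower in capillary-like than in arterial-like cells, a contrast in which 21.1% of all genes were called. They had a median log2 difference of 0.91 beside 0.01 over all genes. Lpl, which encodes lipoprotein lipase, was higher by 2.05 ± 0.43 (adjusted p = 0.000585), and Gpihbp1, which holds that enzyme on the capillary wall, by 2.33 ± 0.51 (adjusted p = 0.000943). Angptl4, an inhibitor of the enzyme, was higher by 1.54 ± 0.37 (adjusted p = 0.00236), and the lipoprotein receptor gene Vldlr was lower (-1.67 ± 0.57, adjusted p = 0.0344). Against venous-like cells 3 were higher and 1 lower, and against lymphatic-like cells 4 were higher and 1 lower, where 33.2% and 44.5% of all genes were called. Of 16 tested regulators, 5 were higher and 3 lower than in arterial-like cells. Among them Pparg, a nuclear receptor that drives Cd36 and Fabp4 in fat cells, was higher by 0.81 ± 0.24 (adjusted p = 0.0142). Aplnr, also among the 5, was a marker used to name the capillary class. The 3 called lower were Klf2 (-0.84 ± 0.21, adjusted p = 0.00412), Klf4 (-0.7 ± 0.16, adjusted p = 0.00144) and Notch1 (-0.66 ± 0.12, adjusted p = 0.000146, edgeR). Of 17 genes of fatty acid activation, storage and oxidation, 5 were higher and 0 lower, and of 9 Cd36 partners 2 were higher and 1 lower, beside the same 21.1% of all genes. None of the 6 caveola genes was called against arterial-like cells. On chow, summed adipocyte markers reached 3910 CPM in mesentery and 4240 CPM in adipose in capillary-like cells, against 621 and 1800 CPM in arterial-like cells. The part of adipocyte RNA in the class differences of these list genes was not tested.

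With diet, none of these lists had a called gene in all endothelial cells, in either tissue, with or without the run as a block. The numbers tested were 2 other family members, 7 supply genes, 17 regulators, 6 caveola genes, 9 Cd36 partners and 18 activation, storage and oxidation genes. With the block, arterial-like cells of mesentery had higher Angptl4 (2.45 ± 0.33, adjusted p = 0.000153), Rbp7 (1.59 ± 0.24, adjusted p = 0.000503) and Plin2 (1.35 ± 0.27, adjusted p = 0.00875) on high fat diet. Venous-like cells of mesentery, where Fabp5 was not called, had higher Angptl4 (4.14 ± 0.56, adjusted p = 0.00818), Rbp7 (2.69 ± 0.35, adjusted p = 0.0076) and Aplnr (2.44 ± 0.35, adjusted p = 0.0106). RBP7 is a retinol-binding protein, and PLIN2 coats lipid droplets. Capillary-like cells of adipose had higher Angptl4 (1.51 ± 0.33, adjusted p = 0.000877) and Plin2 (1.56 ± 0.33, adjusted p = 0.000462), and lower Apln (-2.29 ± 0.49, adjusted p = 0.000636), Angpt2 (-1.82 ± 0.48, adjusted p = 0.0156) and Dgat2 (-3.77 ± 0.54, adjusted p = 1.37e-09). Dgat2 was also lower in capillary-like cells of mesentery (-2.62 ± 0.49, adjusted p = 3.64e-05) and in arterial-like cells of adipose (-2.51 ± 0.47, adjusted p = 0.00821). DGAT2 makes triglyceride in fat cells. Of all genes, 0.682% and 0.225% were called for diet in arterial-like and venous-like cells of mesentery. In capillary-like cells 1.21% were called in adipose and 0.803% in mesentery, and in arterial-like cells of adipose 0.313%. The 9 adipocyte markers in capillary-like cells of adipose were 221 and 4240 CPM on chow against 116 and 86.9 CPM on high fat diet. They were 135 and 3910 against 0 to 265 CPM in capillary-like cells of mesentery, and 37.7 and 1800 against 11.1 to 49.1 CPM in arterial-like cells of adipose. The clusters within a class also shifted with diet. In mesentery of run B, cluster 6 held 24.1% of venous-like cells on chow and 76.6% on high fat diet. Cluster 5 held 32.4% and 58.4% of the arterial-like cells there. In adipose of run B, cluster 1 held 18.7% and 96.7% of capillary-like cells. The part of adipocyte RNA and of these cluster shifts in these differences was not tested.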

How the data were processed

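The authors deposited gene by cell matrices of UMI counts for 8 libraries, made with Cell Ranger 3.0.2 (run A) and 5.0.0 (run B) per the file headers. The build mm10 and Seurat 4.3.0 are named in the submitters' processing notes. Barcodes under 500 UMIs or 300 genes, or over 10% mitochondrial UMIs, were dropped, which left 23970 of 27944, and 763 doublets (3.18%) with the highest Scrublet scores were removed, because Scrublet's own threshold marked only 52. Cells were clustered with scanpy 1.11.5 on 2000 variable genes and 30 principal components at resolution 1.0, leaving out 74 lipid genes that include the members, which gave 30 clusters. Classes were rebuilt from markers, so shares may differ from the study's own. Sums of at least 20 cells per class and library were tested with edgeR 4.0.16 (quasi-likelihood test, Benjamini-Hochberg adjustment over all genes tested, threshold 0.05), with DESeq2 1.42.0 as an alternative. The main diet and tissue fits have no block. Run letters pair the pools as repeats of the experiment, and deviations of pools of the same run from their group means correlated at 0.62 to 0.78 over all endothelial cells. In the classes the correlation was weakest in capillary-like cells, at 0.23 to 0.32. It was 0.45 to 0.55 in arterial-like, 0.58 to 0.71 in venous-like and 0.64 to 0.72 in lymphatic-like cells. On simulated counts the class test recovered 86.7% of genes changed by 1 on the log2 scale among 8697 genes. All 6 members are named, with the genes of 6 pathway lists and the 3 genes most like Cd36, Fabp4 and Fabp5. At most 4 genes of a list were to be named, by smallest p for diet in mesentery. List genes named outside that rule (Lpl, Apln, Angpt2, Klf2 and Notch1) were chosen after their values were seen. The members and lists were chosen with earlier results of these data known.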

Additional observations from a re-analysis of the deposited data

How the results depend on the processing

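Leaving out 1 library, using DESeq2 size factors in edgeR, or using another resolution turned no class difference of Cd36, Fabp4, Fabp5 or Slc27a3. Depth limits run A, where capillary-like sums hold 28 to 138 cells.

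With the run as a replicate block, the unblocked counts of 0 called genes became, in all endothelial cells, 3 (diet, adipose) and 23 (tissues on chow). For diet in mesentery and adipose they became 83 and 125 in capillary-like, 61 and 28 in arterial-like, 24 and 9 in venous-like and 170 and 4 in lymphatic-like cells. Without the block, the Fabp5 change in capillary-like cells of adipose was 2.05 (adjusted p = 1, edgeR).

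Without the block, DESeq2 called 5 and 2 genes for diet in mesentery and adipose, and 74 and 5 between tissues on chow and on high fat diet, in all endothelial cells, and 2 for diet in mesentery in venous-like and 10 in lymphatic-like cells. With no filter on low counts the counts for diet in mesentery and adipose were 16 and 56 in capillary-like, 12 and 12 in arterial-like, 51 and 25 in venous-like and 75 and 16 in lymphatic-like cells.

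With the block, DESeq2 called, in all endothelial cells, 223 and 21 genes for diet in mesentery and adipose, 28 for the interaction, and 418 (chow) and 17 (high fat diet) between tissues. In capillary-like cells it called 0 and 7 for diet, in arterial-like cells 24 for diet in mesentery and 20 for tissue on chow, and in lymphatic-like cells 50 for tissue on chow. Resolution 2.0 gave 5 for diet in mesentery, 43 for tissue on chow and 54 for diet in mesentery in capillary-like cells. Keeping doublets gave 1 and 47, and a mitochondrial limit of 20% gave 42 for tissue on chow and 1 for the diet contrast of adipose. Cells without adipocyte UMIs gave 8, 0 and 3 for diet in mesentery, diet in adipose and tissue on chow, 3 and 7 for diet in capillary-like cells and 17 for tissue on chow in arterial-like cells. Run A alone called 611, 1037 and 1507 genes between capillary-like and arterial-like, venous-like and lymphatic-like cells.

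Alternatives chosen after seeing the data were the 4 named classes only, which gave 67, 1, 63 and 3 genes for diet in mesentery, diet in adipose, tissue on chow and tissue on high fat diet with the block, and cluster 1 alone, which gave 33 for diet in adipose with the block and 1 for diet in mesentery without it. The cluster 1 fits had no sum of chow mesentery of run A, which held 18 cells there. The cause was not tested for any of these changes in count.

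Leaving out 1 library at a time, unblocked counts ranged from 0 to 1 for either tissue comparison in all endothelial cells and for diet in mesentery in lymphatic-like cells, and from 0 to 5 and 0 to 12 for diet in mesentery and adipose in capillary-like cells. Blocked counts in all endothelial cells ranged from 0 to 89 for diet in mesentery, 0 to 13 for diet in adipose, 0 to 253 for tissue on chow and 0 to 3 for tissue on high fat diet. They ranged from 0 to 117 and 16 to 167 for diet in capillary-like cells, 11 to 145 for diet in mesentery and 9 to 165 for tissue on chow in arterial-like cells, and 78 to 168 for tissue on chow in lymphatic-like cells. The count between runs ranged from 2931 to 5481. Unblocked changes in all endothelial cells ranged, in mesentery and adipose, from -2.67 to 2.94 and -2.43 to 5.01 for Cd36, -2.52 to 2.65 and -1.84 to 3.88 for Fabp4, and -1.64 to 2.58 and -0.54 to 4.0 for Fabp5. The blocked Fabp4 change in capillary-like cells of mesentery ranged from -0.11 to 0.38.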
